A study of Equus caballus with 10 samples.

Results

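The phosphatases and the kinase described here act on the start of sperm motility, and their transcripts were measured in ejaculated spermatozoa of stallions (Equus caballus). They were chosen by gene symbol: protein phosphatase 1 gamma (PPP1CC), its regulators PPP1R7 and PPP1R11, the sperm calcineurin subunits PPP3CC and PPP3R2, and glycogen synthase kinase 3 alpha (GSK3A). Of these 6 genes, 5 were measured, each by 1 of the 30559 probe sets of the array, and none by a probe set that carries several symbols. PPP3R2 had no probe set of that symbol in the platform annotation used here and was not analysed.

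The 10 arrays are those of 10 warmblood stallions of breeding age kept at an insemination centre, 1 array each. Season and fertility class divide them into autumn with high fertility (stallions 1 and 2), autumn with low fertility (stallions 5 and 6), spring with high fertility (stallions 3, 4 and 9) and spring with low fertility (stallions 7, 8 and 10). Stallion 9 has a title that starts like those of the autumn arrays but a season label of spring, and it was kept in spring. The labels place the sampling of every animal in the breeding season, those labelled autumn included, and do not say how fertility was assessed. Each array is another animal, so a group's spread is the spread between animals, and 2 or 3 animals a group limit the precision. Signals are on the log2 scale as deposited by the authors, where no value is below 4, and none of the 5 genes lay at that floor on any array. Signals of different probe sets are not compared as abundances.

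In mammalian testis and sperm, PPP1CC is best known for its gamma2 splice form, the main protein phosphatase 1 of spermatozoa, whose activity is high in immotile sperm and falls as sperm gain motility in the epididymis. Its regulators bind the catalytic subunit and hold it inactive, and GSK3 acts on that inhibition by phosphorylating the inhibitor PPP1R2. Calcineurin, a phosphatase driven by calcium and calmodulin, has a sperm form made of PPP3CC and PPP3R2, and in mice its loss leaves the midpiece of the tail stiff. Ejaculated sperm make little or no new RNA, so their transcripts are largely carried over from spermatids. The signals below are RNA signals and do not give protein, phosphorylation or motility.

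No measured gene differed between the seasons or between the fertility classes past the threshold. GSK3A was the only one of the 5 whose fertility classes did not overlap in spring, where the 3 stallions of low fertility lay above the 3 of high fertility. Over all probe sets, 6.71% did not overlap there in either direction. In autumn, PPP1CC, PPP3CC and PPP1R7 were higher in both stallions of low fertility than in both of high fertility, and PPP1R11 was lower. With 2 stallions against 2, 28.7% of all probe sets did not overlap in autumn in either direction. With stallion 9 in autumn, PPP1CC and PPP1R11 would overlap there. PPP1R7 varied most, with low signals in stallions 2 and 9. None of the 5 genes passed an adjusted p under 0.05 in limma for season, fertility class or their interaction (every adjusted p = 1, 0 of 5 at an unadjusted p under 0.05 in each). Over all probe sets, 0.00327% passed for season, 0.00327% for fertility class and 0.00327% for the interaction, and an unadjusted p under 0.05 was reached by 4.18%, 2.59% and 3.79% respectively, so 0 calls among 5 genes are near the share over the whole array.

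**Figure D1:**
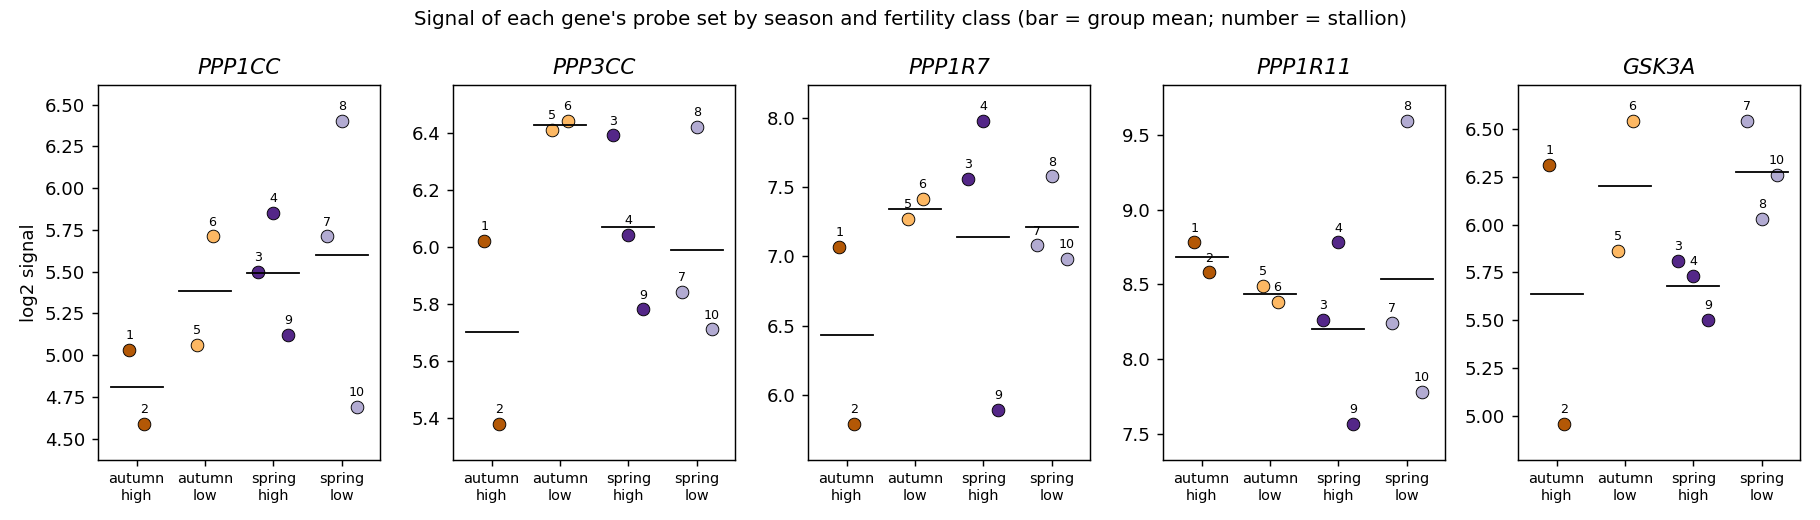
The log2 signal of each gene's probe set is plotted for every stallion (numbered points) in the 4 season by fertility groups, with a bar at each group mean and a separate y axis per gene. The 3 spring stallions of low fertility lie above the 3 of high fertility for GSK3A, from 6.03 against at most 5.81, while the points of stallions 2 and 9 lie at the bottom for PPP1R7.

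PPP1CC encodes the catalytic subunit. Its signal was 5.03 and 4.59 in stallions 1 and 2 (autumn, high fertility) and 5.06 and 5.71 in stallions 5 and 6 (autumn, low fertility). The spring values were 5.50, 5.85 and 5.12 in stallions 3, 4 and 9 (high fertility) and 5.71, 6.40 and 4.69 in stallions 7, 8 and 10 (low fertility). Every spring stallion of high fertility was above both autumn stallions of high fertility, but the lowest spring value, that of stallion 10, was below 3 of the 4 autumn values. The group means ran from 4.81 ± 0.31 (SD, n = 2) in autumn with high fertility through 5.385 ± 0.46 (n = 2) in autumn with low fertility and 5.49 ± 0.365 (n = 3) in spring with high fertility to 5.60 ± 0.86 (n = 3) in spring with low fertility, and the last 3 of these means lie within one another's SD. The spring minus autumn difference was 0.45 (SE 0.33, 95% interval -0.30 to 1.20) and the low minus high difference 0.34 (SE 0.33, interval -0.41 to 1.09). The annotation gives the gene only, so the gamma1 and gamma2 splice forms could not be told apart.

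PPP1R7 encodes a leucine-rich repeat protein, also called sds22, that binds the catalytic subunit and is found bound to it in motile sperm of the bull. Its signal was 7.07 and 5.79 in stallions 1 and 2, and 7.27 and 7.42 in stallions 5 and 6. In spring the signal was 7.56, 7.98 and 5.89 in stallions 3, 4 and 9, and 7.08, 7.58 and 6.98 in stallions 7, 8 and 10. The values of stallions 2 and 9 stood apart from the other 8, which lay between 6.98 and 7.98, and both are stallions of high fertility. The SD was accordingly 0.905 (n = 2) and 1.11 (n = 3) in the high-fertility groups of autumn and spring and 0.11 (n = 2) and 0.32 (n = 3) in the low-fertility groups. The group means ran from 6.43 in autumn with high fertility through 7.14 in spring with high and 7.21 in spring with low to 7.345 in autumn with low fertility, and no 2 neighbours in this order differed beyond the larger of their SDs. The low minus high difference was 0.49 (SE 0.42, interval -0.46 to 1.44), and without stallions 2, 9 and 10 the difference was -0.08 (SE 0.22). The season difference was 0.29, and 0.69 (SE 0.27, adjusted p = 1 in limma) with stallion 9 in autumn. Over the 10 arrays its SD of 0.71 was larger than that of 91.1% of probe sets.

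PPP1R11, or inhibitor 3, is a small heat-stable inhibitor of the same catalytic subunit. Its signal was 8.78 and 8.58 in stallions 1 and 2, and 8.49 and 8.38 in stallions 5 and 6. Spring signals were 8.26, 8.78 and 7.57 in stallions 3, 4 and 9, and 8.24, 9.59 and 7.78 in stallions 7, 8 and 10. The 4 autumn values lay close together, between 8.38 and 8.78, while the spring values spanned the whole range of the gene, with stallion 8 at the top and stallion 9 at the bottom. The group means ran from 8.20 ± 0.61 (SD, n = 3) in spring with high fertility through 8.435 ± 0.08 (n = 2) in autumn with low and 8.54 ± 0.94 (n = 3) in spring with low to 8.68 ± 0.14 (n = 2) in autumn with high fertility, each neighbour within the larger SD. The season difference was -0.19 (SE 0.36, interval -1.01 to 0.63) and the fertility difference 0.04 (SE 0.36, interval -0.78 to 0.87). The direction of both depended on the setting: the fertility difference was -0.01 with each array centred on its median, and the season difference was 0.16 with stallion 9 in autumn.

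PPP3CC encodes the catalytic calcineurin subunit of testis and sperm. Its signal was 6.02 and 5.38 in stallions 1 and 2, and 6.41 and 6.44 in stallions 5 and 6. In spring it was 6.39, 6.04 and 5.78 in stallions 3, 4 and 9, and 5.84, 6.42 and 5.71 in stallions 7, 8 and 10. Both autumn stallions of low fertility were among the 4 highest values, with stallions 3 and 8. The spring means, 6.07 ± 0.31 (SD, n = 3) in high and 5.99 ± 0.38 (n = 3) in low fertility, lay between the autumn means and did not differ beyond their spread. Within autumn the low-fertility mean of 6.425 ± 0.02 (SD, n = 2) exceeded the high-fertility mean of 5.70 ± 0.45 (n = 2) by 0.725 (SE 0.33, interval -0.02 to 1.47). The unadjusted limma p of that difference was 0.0558, the smallest among the 5 genes in any comparison made, and its adjusted p was 1. Without stallion 2 the difference was 0.405 (SE 0.375). In spring the groups overlapped and the difference was -0.08 (SE 0.27). The season difference was -0.03 (SE 0.21, interval -0.515 to 0.45), and its sign turned to 0.035 with each array centred on its median. The interaction, which asks whether the season difference differed between the fertility classes, was -0.805 (SE 0.43, interval -1.77 to 0.16).

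GSK3A encodes the kinase form that sperm of mice cannot replace with GSK3B: males without GSK3A are infertile. Its signal was 6.31 and 4.96 in stallions 1 and 2, and 5.86 and 6.54 in stallions 5 and 6. The spring stallions had 5.81, 5.73 and 5.50 in stallions 3, 4 and 9, and 6.54, 6.03 and 6.26 in stallions 7, 8 and 10. The spring groups did not overlap, with means of 5.68 ± 0.16 (SD, n = 3) in high and 6.28 ± 0.255 (n = 3) in low fertility, while in autumn stallion 1 of high fertility lay between the 2 stallions of low fertility. The autumn means were 5.635 ± 0.955 (n = 2) in high and 6.20 ± 0.48 (n = 2) in low fertility, so both low-fertility means were above both high-fertility means, and within a class the seasons lay within their spread. The difference between the classes was 0.60 in spring (SE 0.35, interval -0.19 to 1.38) and 0.565 in autumn (SE 0.43, interval -0.40 to 1.53). Averaged over the seasons it was 0.58 (SE 0.275, interval -0.04 to 1.20), with an unadjusted limma p of 0.0638 and an adjusted p of 1. The exact two-sided permutation test of the fertility labels within each season gave p = 0.117, where 120 arrangements allow no p below 0.0167. The autumn part rested on stallion 2: without it the autumn difference was -0.11 and the averaged one 0.24 (SE 0.22), against 0.92 (SE 0.22, adjusted p = 0.773) without stallion 1. The spring part stayed between 0.465 and 0.72 when any 1 of the 10 arrays was left out. The season difference was 0.06 (SE 0.275), and -0.23 without stallions 2, 9 and 10.

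**Figure D2:**
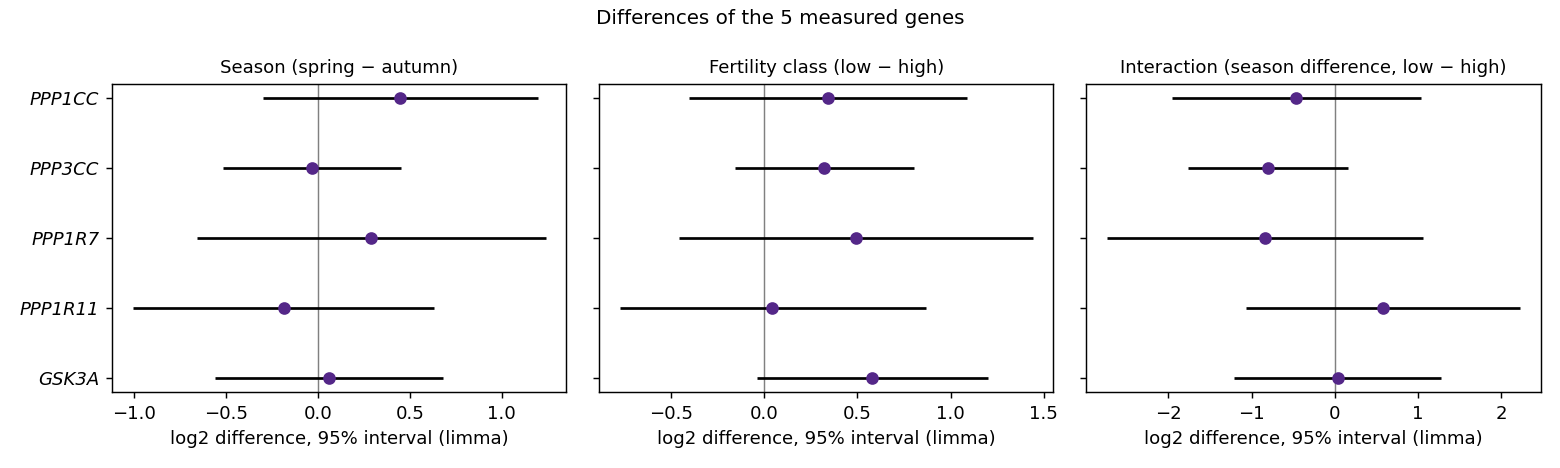
Points show the log2 differences of the 5 measured genes by season, by fertility class and for their interaction, with 95% intervals from limma. Every interval includes 0, and the interval of GSK3A by fertility class, from -0.04 to 1.20, comes nearest to leaving it out.

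Counted by pairs of groups, 4 of the 5 genes did not overlap between the fertility classes in autumn, 3 higher and 1 lower in low fertility, where 28.7% of all probe sets did not overlap in either direction with 2 stallions against 2. PPP1CC did so by a narrow gap, from 5.03 to 5.06. With stallion 9 in autumn, PPP1CC (5.12 in stallion 9) and PPP1R11 (7.57) would overlap there, and PPP3CC and PPP1R7 would still not. In spring 1 of 5, GSK3A, did not overlap, against 6.71% of all probe sets. Between the seasons 1 of 5, PPP1CC, did not overlap in high fertility, against 16.1%, and 0 of 5 in low fertility, against 16.3%. With stallion 9 in autumn, PPP3CC and PPP1R7 would also not overlap between the seasons in high fertility. The shares of all probe sets in that setting were not counted. Among the differences within one class of the other factor, 0% of all probe sets passed the adjusted threshold for season in high fertility, 0.00654% for season in low fertility, 0.00327% for fertility class in autumn and 0% for fertility class in spring, and 0 of the 5 genes passed in any of them. These comparisons share groups with one another, so their values are not independent.

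By fertility class all 5 genes had the higher mean in low fertility, with a median difference of 0.34. Over all probe sets 60.5% were higher in low fertility and the median difference was 0.05. By season 3 were higher and 2 lower in spring, with a median of 0.06, where 41.6% of all probe sets were higher and the median was -0.05. For the interaction 3 were negative and 2 positive, with a median of -0.465, against 56.3% negative and a median of -0.07 over all probe sets. Array medians differed, from 5.07 to 5.49. With each array centred on its median, 4 of the 5 were higher in low fertility against 49.9% of all probe sets, and 4 were higher in spring against 53.5%. Without stallions 2, 9 and 10, 4 of the 5 were higher in low fertility against 46.7%. With stallion 9 in autumn, all 5 were higher in spring, against 51.9%.

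Markers of late spermatids, the cells whose transcripts sperm carry, were followed in the same comparisons. By fertility class 10 of the 11 measured late spermatid markers were higher in low fertility, with a median of 0.15, against 60.5% of all probe sets. Without stallions 2, 9 and 10, 3 of 11 markers were higher, against 4 of the 5 genes and 46.7% of all probe sets. For the interaction all 11 markers were negative, with a median of -1.12, against 3 of the 5 genes and 56.3% of all probe sets. Without those stallions 8 of 11 markers were negative, with a median of -0.145, against 2 of the 5 genes and 43.8% of all probe sets. The 4 markers with the smallest p were SPATA3 at -2.29 (SE 0.94), TSSK6 at -1.47 (SE 0.61), PRM1 at -1.29 (SE 0.77) and ODF1 at -1.155 (SE 0.97), all with an adjusted p of 1 in limma. The part of this in the differences of the 5 genes was not tested.

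Array medians were 5.07 to 5.10 for stallions 2, 9 and 10 and 5.24 to 5.49 for the other 7, and these 3 arrays had 2764 to 2920 probe sets on the floor where the others had 842 to 2129. PPP3CC was lower on these 3 arrays than on the other 7, at 5.38 to 5.78 against 5.84 to 6.44, and so was PPP1R7, at 5.79 to 6.98 against 7.07 to 7.98. PPP1CC (4.59 to 5.12 against 5.03 to 6.40), PPP1R11 (7.57 to 8.58 against 8.24 to 9.59) and GSK3A (4.96 to 6.26 against 5.73 to 6.54) overlapped. After subtracting each array's median, PPP1R7 was 0.69 and 0.82 in stallions 2 and 9, still below the other 8 at 1.63 to 2.59, and stallion 10 stood among those at 1.90. The 11 measured late spermatid markers, among them protamine and tail protein genes and AKAP4, which is also in the cyclic AMP list, averaged 9.31 to 9.97 on the 3 arrays and 10.84 to 11.63 on the other 7. In bulk RNA, several readings of this cannot be told apart. They are fewer late spermatid transcripts per cell, fewer cells that carry them, and whatever lowered the signal of these 3 arrays as a whole. The part of this in the differences above was not tested.

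**Figure D3:**
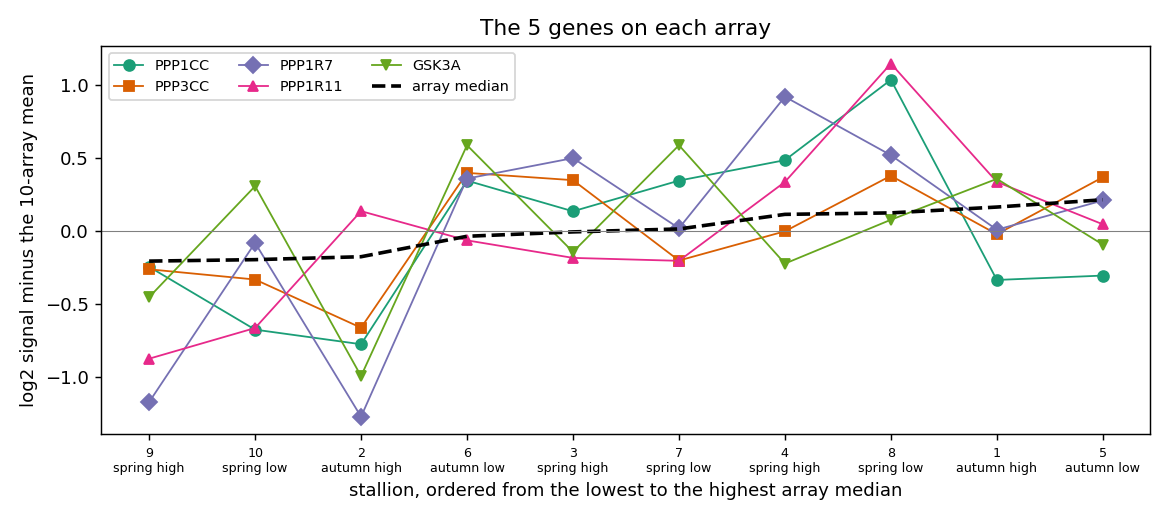
For each of the 5 genes, the log2 signal minus its mean over the 10 arrays is plotted by stallion, with the arrays ordered by their median (dashed line, treated the same way). PPP1R7 falls lowest in stallions 9 and 2, GSK3A is above its mean in stallion 10 although that array has a low median, and PPP1CC and PPP1R11 peak in stallion 8.

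The 5 genes did not share one order of stallions. Stallion 2 had the lowest value of PPP1CC, PPP3CC, PPP1R7 and GSK3A but its 8.58 for PPP1R11 was above that gene's 10-array mean of 8.445, and stallion 8 had the highest of PPP1CC and PPP1R11. Over the 10 arrays Pearson's r of the 10 pairs of genes ran from 0.02 to 0.75. Since 3 arrays stand apart, correlations were tested over the other 7 alone. Over these 7, r ran from -0.67 to 0.57. For PPP1R7 and GSK3A, r was -0.67 (exact permutation p = 0.0984, adjusted over the 10 pairs 0.688), Spearman's rho was -0.65 (exact permutation p = 0.126, adjusted 0.631), and r was -0.51 without the 2 arrays farthest from the median of PPP1R7. For PPP1CC and its inhibitor PPP1R11, r was 0.57 (exact permutation p = 0.198, adjusted 0.688) and rho 0.27 (exact permutation p = 0.559, adjusted 0.698), and r fell to 0.17 without the 2 arrays farthest from the median of PPP1CC. For PPP1CC and PPP1R7, r was 0.54 (exact permutation p = 0.206, adjusted 0.688) and rho 0.76 (exact permutation p = 0.0571, adjusted 0.571). Their r was 0.42 without the 2 arrays farthest from the median of PPP1CC. No pair had an adjusted p under 0.05.

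Other genes of the same families were measured too. PPP1CA, the alpha form of the same catalytic subunit, ranged from 5.84 to 7.42, with a fertility difference of 0.19 and a season difference of -0.26. PPP1CB, the beta form, ranged from 4.04 to 5.25, with -0.16 and -0.11. The calcineurin catalytic genes PPP3CA (4.73 to 6.28) and PPP3CB (4.79 to 5.90) differed by -0.01 and 0.06 between the fertility classes. None of these reached an unadjusted p under 0.05 in any of the 3 comparisons.

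PPP3R1, the calcineurin regulatory subunit of most tissues and the counterpart of the unmeasured PPP3R2, was 4.59 and 4.20 in stallions 1 and 2, and 5.25 and 5.28 in stallions 5 and 6. Its spring values were 5.11, 4.79 and 5.11 in stallions 3, 4 and 9, and 5.0, 5.46 and 4.69 in stallions 7, 8 and 10. The autumn classes did not overlap, as for 28.7% of all probe sets in either direction, and the spring classes did. Its fertility difference was 0.46 (SE 0.19, adjusted p = 1), with an unadjusted limma p of 0.0359. PPP3CC showed the same order of the autumn stallions by class.

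GSK3B, the second GSK3 gene, ranged from 6.31 to 7.21, with a fertility difference of -0.02, where GSK3A had 0.58. The spring stallions had 7.21, 7.12 and 6.43 in high and 7.08, 6.94 and 6.31 in low fertility, so the separation seen for GSK3A was not seen for GSK3B. The difference between the genes was not tested.

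PPP1R2, or inhibitor 2, the inhibitor that GSK3 phosphorylates, was the most variable of these genes with an SD of 1.18. It stood at 9.37 and 7.43 in stallions 1 and 2, and at 8.93 and 9.24 in stallions 5 and 6. Spring stallions had 10.49, 9.69 and 7.93 in stallions 3, 4 and 9, and 9.12, 10.85 and 7.40 in stallions 7, 8 and 10. Its 3 lowest values were on the 3 arrays with the lowest medians, 1 in each group except autumn with low fertility. The groups overlapped, and its differences were 0.50 by season and 0.22 by fertility class (adjusted p = 1).

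**Figure D4:**
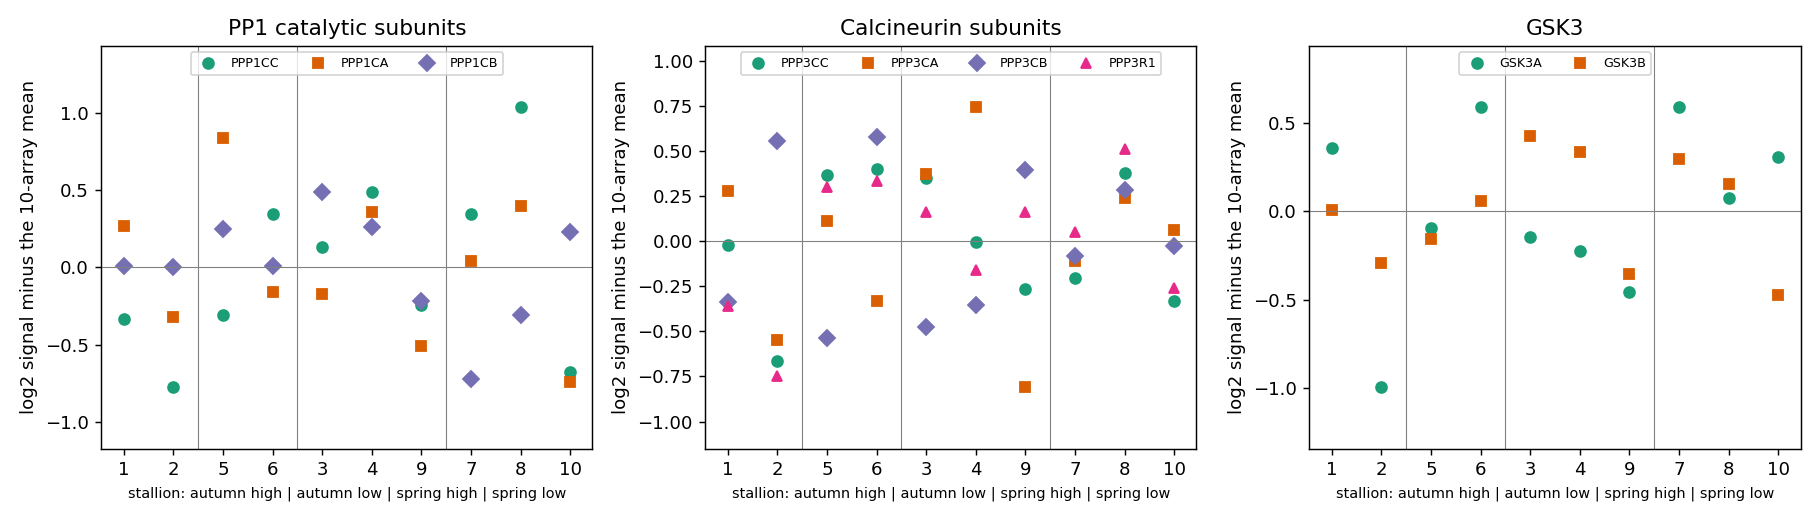
Log2 signals minus each gene's own 10-array mean are plotted by stallion for the protein phosphatase 1 catalytic genes, the calcineurin genes and the 2 GSK3 genes, with lines between the groups. PPP3CC and PPP3R1 are both low in stallions 1 and 2 relative to stallions 5 and 6, and GSK3A, but not GSK3B, is lower in all 3 spring stallions of high fertility than in all 3 of low fertility.

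The wider network of phosphatases, GSK3 partners and upstream kinases was followed in 6 lists of 172 genes, of which 160 were measured. None passed the adjusted threshold in any of the 3 comparisons (lowest adjusted p = 1 in limma). An unadjusted p under 0.05 was reached by 1.88% of the 160 for season, 2.5% for fertility class and 1.25% for the interaction. Over all probe sets the shares were 4.18%, 2.59% and 3.79%. The list counts are 3, 4 and 2 genes, too few to read as a difference from those shares.

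Of the 39 measured genes of protein phosphatase 1 catalytic subunits and regulators, 28 were higher and 11 lower in low fertility, with a median of 0.15. Over all probe sets 60.5% were higher. Without stallions 2, 9 and 10, 18 of the 39 were higher, against 46.7% of all probe sets. The gene of this list with the smallest p was PPP1R14C, an inhibitor that acts when phosphorylated. It stood at 5.42, 5.37, 5.64 and 6.29 in the autumn stallions 1, 2, 5 and 6 and at 4.83, 4.78, 4.39, 4.84, 4.41 and 4.41 in the spring stallions 3, 4, 9, 7, 8 and 10. The seasons did not overlap, and the difference was -1.07 (SE 0.19, adjusted p = 1). Stallion 9 had the lowest value, 4.39, so with stallion 9 in autumn the seasons would overlap. The gene was picked by its p, and the share of all probe sets with no overlap between the seasons was not counted. WBP11, a splicing-related protein that binds the phosphatase, differed by 0.77 (SE 0.32) between the fertility classes. PPP1R37 was at -0.465 by season and LMTK2, a kinase that binds the phosphatase, at -0.57 for the interaction.

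Of the 26 measured genes of the calcineurin and calmodulin arm, 18 were higher in low fertility, against 60.5% of all probe sets. For the interaction 21 were negative, against 56.3% of all probe sets. Without stallions 2, 9 and 10, 11 were higher in low fertility and 16 negative for the interaction, against 46.7% and 43.8% of all probe sets. Beside PPP3R1, the genes with the smallest p were CHP1, a calcineurin-like calcium-binding protein, at -1.08 (SE 0.45) for the interaction, RCAN2, a regulator of calcineurin, at 0.28 by fertility class, and CAMKMT, which methylates calmodulin, at -0.90 for the interaction.

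Of the 28 measured GSK3 partners and upstream kinases, 19 were higher in low fertility, against 60.5% of all probe sets. For the interaction 23 were negative, with a median of -0.29, against 56.3% of all probe sets. Without stallions 2, 9 and 10 these counts were 13 and 20, against 46.7% and 43.8% of all probe sets. PIK3R1, the regulatory subunit of the kinase upstream of AKT and GSK3, was lower in low fertility by the mean, at -0.63 (SE 0.21). It stood at 5.46, 5.45, 5.44, 5.50 and 5.16 in the high-fertility stallions 1, 2, 3, 4 and 9. In the low-fertility stallions 5, 6, 7, 8 and 10 it stood at 4.51, 4.66, 5.61, 4.75 and 4.59. Stallion 7 had the highest value of all, and the other 4 of low fertility lay below every stallion of high fertility. DVL1, a Wnt pathway scaffold that restrains GSK3, was at -0.53 by season, and the casein kinase genes CSNK1D and CSNK1G2 at -1.56 and -1.72 for the interaction, all with adjusted p = 1.

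Of the 37 measured genes of protein phosphatase 2A and other serine-threonine phosphatases, 28 were higher in low fertility, and 17 without stallions 2, 9 and 10. The shares over all probe sets were 60.5% and 46.7%. PPM1G, a metal-dependent phosphatase and the gene of this list with the smallest p, was 0.78 higher in spring (SE 0.17, adjusted p = 1). Its seasons did not overlap either, at 7.64 to 7.85 in spring and 6.23 to 7.44 in autumn. The 7.85 is that of stallion 9, so with stallion 9 in autumn the seasons would overlap. PPM1G too was picked by its p, and the share of all probe sets with no overlap between the seasons was not counted. PPP4R2 and PPP2R2C, regulatory subunits of phosphatases 4 and 2A, were at 0.31 and 0.65 by fertility class, and PTPA, an activator of phosphatase 2A, at -0.77 for the interaction. Of the 7 genes of 14-3-3 proteins, which bind phosphorylated partners, 6 were higher in low fertility with a median of 0.09, against 60.5% of all probe sets. Without stallions 2, 9 and 10, 2 were higher, against 46.7%. YWHAQ, YWHAB, YWHAZ and YWHAH were at -1.61, -0.43, -1.33 and -0.76 for the interaction. There 5 of the 7 were negative, against 56.3% of all probe sets, and 2 positive, YWHAG at 0.925 and SFN at 0.18. Of the 23 measured genes of the cyclic AMP and protein kinase A arm, 9 were higher in low fertility, with a median of -0.09, against 60.5% of all probe sets. PDE4A, a phosphodiesterase that degrades cyclic AMP, was at -0.78 by season. SPA17, a sperm protein with a domain like the docking domain of protein kinase A, was at 0.93 by season. AKAP1 was at -1.36 for the interaction. SPATA18, which was in the list without an established place in this arm, was at -1.37 for the interaction.

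**Figure D5:**
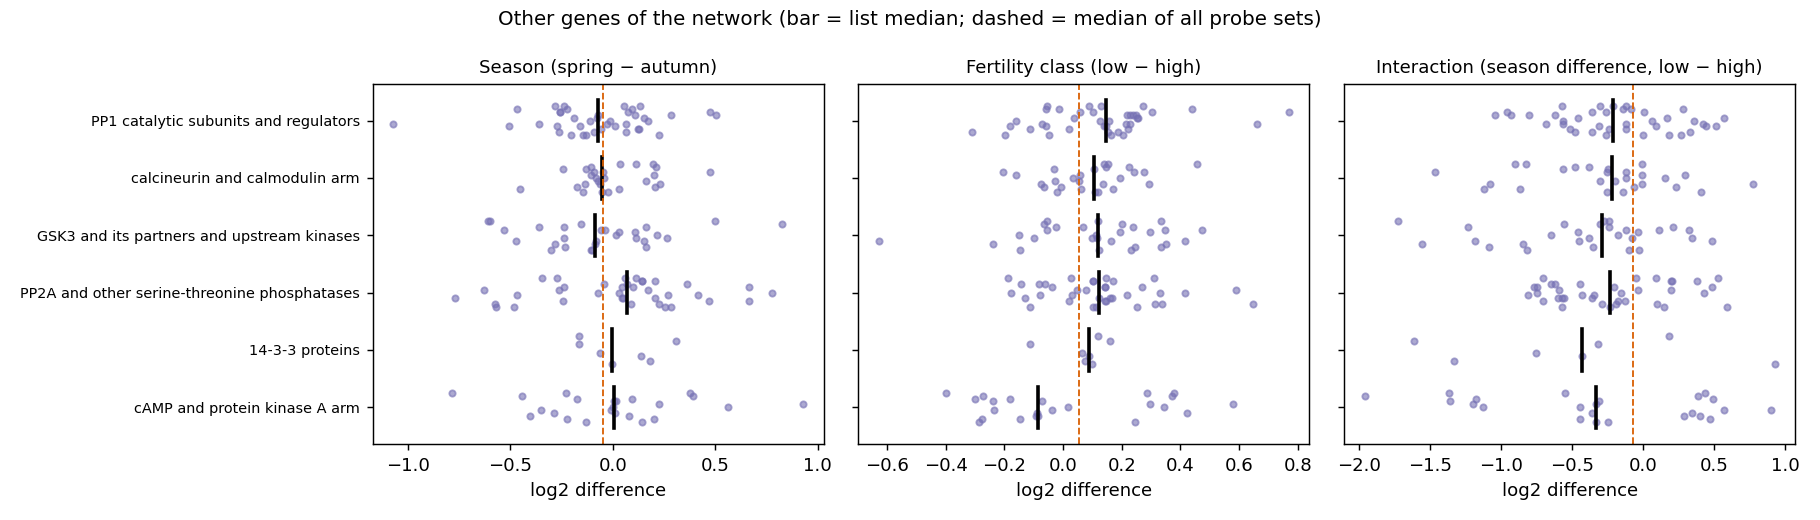
Each point is the log2 difference of 1 measured gene of the 6 lists by season, by fertility class or for the interaction, with a bar at the list median and a dashed line at the median of all 30559 probe sets. The list medians by fertility class lie between -0.09 and 0.15, close to the dashed line at 0.05 beside the spread of the points.

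For each of the 5 genes, the 3 named genes with the most alike pattern were taken by Pearson's r over the 10 arrays. Each r is the highest among 16789 probe sets, and the points share the array medians, so it is a description. PPP1CC was most like LOC100050473 (r = 0.95, and 0.93 over the 7 arrays other than those of stallions 2, 9 and 10), SUCLA2 and DNAJC10. PPP3CC was most like TIPARP (0.96, and 0.93 over the 7), SIRT4 and GTF3C3. PPP1R7 was most like ZNF683 (0.96, and 0.94 over the 7), HOOK3 and UQCRC2. PPP1R11 was most like SNAPC4 (0.945, and 0.90 over the 7), FDXACB1 and SMARCA5, and GSK3A was most like HSPG2 (0.92, and 0.94 over the 7), SNX18 and DDX59.

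Markers checked the labelled cell type. Since signals of different probe sets give no order of abundance, the check says only which markers gave signal. PRM1, a protamine of sperm chromatin, was between 11.58 and 13.43 on the 10 arrays, far above the floor. The 16 measured leukocyte markers averaged 5.10 to 5.57 per array, the 8 epithelial markers 5.08 to 5.47 and the 13 markers of earlier germ cells and somatic testis cells 4.93 to 5.59, all close to the array medians. CD3E and KRT14 were each on the floor on 3 arrays, while PTPRC, the pan-leukocyte gene, ranged from 5.38 to 6.98. Within the spring stallions, where GSK3A separated the fertility classes, the leukocyte list averaged 5.17 to 5.40 in high and 5.10 to 5.33 in low fertility, and the late spermatid list 9.97 to 11.57 and 9.31 to 11.63. In autumn the leukocyte list averaged 5.16 to 5.40 in high and 5.16 to 5.57 in low fertility, and the late spermatid list 9.75 to 11.04 and 10.95 to 11.32. These averages do not show S100A9, which stood at 8.24 and 8.19 in stallions 5 and 6 (autumn, low fertility). It stood at 4.78 to 6.63 in the other 8 stallions. S100A8, also in the leukocyte list, had a fertility difference of -0.03. Over all probe sets, 60.5% were higher in low fertility. By fertility class 8 of the 16 leukocyte markers were higher and 8 lower in low fertility, with a median difference of 0.01. Among them S100A9 was at 1.44 (SE 0.375), FCER1G at -0.38 (SE 0.16) and TYROBP at -0.43 (SE 0.18) by fertility class, while S100A9 was also at -1.32 by season and -1.90 for the interaction, TYROBP at 0.96 for the interaction and ITGAM at 0.50 by season. Of the epithelial markers, MUC1, KRT5 and ELF3 were at 0.46, -0.43 and 0.27 by season and EPCAM at -0.31 by fertility class. Of the earlier germ cell and somatic testis markers, MEIOB was at -1.755 for the interaction, SPO11 and STAR at 0.62 and 0.415 by fertility class and SYCP3 at 0.36 by season. All of these marker genes had an adjusted p of 1 in limma. The part of other cells in the differences was not tested.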

How the data were processed

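Sperm RNA of 10 stallions was hybridised to 10 Affymetrix arrays, 1 per stallion. Per the labels' protocols, RNA came from 4 ejaculates per stallion, with DNase treatment and column clean-up. The values used are the log2 signals deposited by the authors, with a floor of 4. GCOS 1.1.1 and Affymetrix Expression Console 1.1 are listed, per the submitters' processing notes, without their roles. How signals were scaled is not stated in these sources, and values were used as deposited. Probe sets were named from the platform annotation: 16789 had 1 symbol, 343 several and 13427 were unnamed there. Per gene the single-symbol probe set with the highest mean was used.

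One mean per season by fertility group was fitted to all 30559 probe sets with limma 3.58.1 in R 4.3.3 (6 residual and 2.96 prior degrees of freedom, eBayes, two-sided), and p-values were adjusted by Benjamini-Hochberg over all probe sets at 0.05. Season is spring minus autumn, fertility low minus high, each averaged over the other factor. The fit was tested on simulated data with 30559 probe sets and 50 changed per size: by fertility class it recovered 40% of changes of 1 log2 unit and 68% of 2, with 13 false calls. For season it recovered 30% and 68%, with 4, and for the interaction 0% and 12%, with 3. These rates describe the simulated data and were not checked on the real arrays, whose medians differed. Changes of 1, 2, 3 and 4 log2 units were planted together, and the larger ones ease the adjusted threshold for the smaller. They were planted only in probe sets with a mean above the highest array median of 5.49, which leaves out PPP1CC at 5.37. In the real fit, the season differences of PPP1R14C (-1.07) and PPM1G (0.78) did not pass the adjusted threshold. What share of real changes in the measured genes would be found was not tested.

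The genes and lists were chosen with earlier results of these data known. Named from each list were up to 4 genes with the smallest unadjusted p over the 3 comparisons, and beside them the paralogs of the measured genes. Alternatives were array centring, quantile normalization, a filter on low means, no moderation, no interaction term, stallion 9 in autumn, omission of stallions 2, 9 and 10 or of each array in turn, terms for title form or array median, and exact permutation. Title form is whether a number follows the season and fertility letters of the title, which stallions 9 and 10 alone lack. Both are spring arrays with low medians, so within spring this term cannot be told apart from low array signal. The marker genes printed with levels (PRM1, CD3E, KRT14, PTPRC, S100A9), the marker S100A8 and the 14-3-3 genes YWHAG and SFN were chosen after their values were seen.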

Additional observations from a re-analysis of the deposited data

How the results depend on the processing

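No paired analysis was possible because each of the 10 labelled stallion numbers has 1 array in 1 group. Some titles end in the same digit after different letters, whose meaning is not given, so these were not used as pairs. Of 35 results (5 genes in 7 comparisons), 0 calls were made under any alternative (smallest adjusted p = 0.565), and 14 kept their direction in every alternative, among them the fertility differences of PPP1CC, PPP3CC and GSK3A, the season difference of PPP1CC and the interactions of PPP3CC and PPP1R7. Their sizes moved when 1 array was left out: fertility from 0.142 to 0.57 for PPP1CC, 0.163 to 0.483 for PPP3CC and 0.243 to 0.918 for GSK3A, season from 0.248 to 0.675 for PPP1CC, and the interaction from -1.125 to -0.485 for PPP3CC and -1.485 to -0.205 for PPP1R7. Some alternatives could not reverse a direction. No moderation, the filter on low means and exact permutation leave the estimate of these genes as it was. Leaving out an array outside the compared groups does the same for a difference within one class of the other factor. The cause of the reversals was not tested beyond what each alternative changes.

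The season difference of PPP3CC was 0.035 with arrays centred on their medians, 0.043 after quantile normalization, 0.06 with the array median as a covariate, 0.11 with a term for title form and 0.027 with stallion 9 in autumn. The fertility difference of PPP1R11 was -0.01, -0.043 and -0.10 in the first 3 of these. With the term for title form, the season difference of PPP1R11 was 0.16 and that of PPP1R7 in low fertility 0.24 (0.225 with the array median as a covariate).

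With stallion 9 in autumn, the differences of PPP1R7 grew without changing sign, from 0.29 to 0.69 by season, from -0.845 to -1.65 for the interaction and from 0.71 to 1.52 by season in high fertility, with adjusted p of 1, 0.778 and 0.957 in limma. PPP1R11 was at 0.156 by season, -0.108 for the interaction, 0.21 by season in high fertility and 0.125 by fertility class in autumn. GSK3A was then at -0.103 for the interaction, and PPP1CC and PPP1R7 at -0.075 and -0.557 by fertility class in spring.

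Without stallions 2, 9 and 10, where stallion 1 alone stands for the autumn stallions of high fertility and is assumed to vary like the rest, the season differences were 0.11 for PPP1R11 and -0.228 for GSK3A, and GSK3A was at -0.54 by season in high fertility and -0.11 by fertility class in autumn. PPP1R7 was at -0.083 by fertility class and -0.44 within spring, and PPP1CC at 0.025 for the interaction.

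With 1 array left out at a time, season differences ran from -0.192 to 0.128 for PPP3CC, -0.029 to 0.611 for PPP1R7, -0.451 to 0.002 for PPP1R11 and -0.277 to 0.398 for GSK3A, and the fertility difference of PPP1R11 from -0.219 to 0.233. The interaction of GSK3A ran from -0.643 to 0.707 and its season difference in high fertility from -0.63 to 0.72, the extremes being without stallions 1 and 2. Season differences in low fertility ran from -0.185 to 0.67 for PPP1CC, -0.425 to 0.48 for PPP1R11 and -0.263 to 0.417 for GSK3A. The fertility difference of GSK3A in autumn ran from -0.11 to 1.24, and those in spring from -0.29 to 0.565 for PPP1CC, -0.295 to 0.08 for PPP3CC, -0.557 to 0.488 for PPP1R7 and -0.193 to 0.712 for PPP1R11.

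The mean over several probe sets was not run, since each measured gene had 1. Counts of higher genes in the lists without stallions 2, 9 and 10, with stallion 9 in autumn and with centred arrays were added after the data were seen. With stallion 9 in autumn, 18 of the 26 calcineurin genes were higher in spring, where 51.9% of all probe sets were. In the main fit the count was 10, against 41.6% of all probe sets. It was 15 with each array centred on its median, against 53.5%, and 11 without stallions 2, 9 and 10, against 41.2%. The number of arrays and the floor limit what can be detected.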
